A study of Mus musculus with 4 samples.

Results

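Titin, the M-band proteins, the myosin-binding proteins, the factors that fold and assemble myosin, and myospryn (Cmya5) were followed here as 9 genes. These are Ttn, Myom1, Myom2, Myom3, Mybpc3, Mybphl, Smyd1, Unc45b and Cmya5. They were taken by name, after matching the Ensembl identifiers of the count files to mouse symbols, and all 9 were found among 43346 identifiers. Transcripts were counted in mouse hearts at postnatal day 0, in 2 wild type libraries on the ICR strain background and 2 MRTFA/B double knockout libraries on a background labelled mixed. MRTFA and MRTFB are coactivators of serum response factor (SRF), which switches on actin and contractile genes. Strain background and genotype cannot be told apart in this design. The labels name no promoter, Cre line or cell type for either deletion, and leave open whether a group's 2 libraries come from separate animals. The p-values therefore set the group difference against the spread of these libraries only, and that spread may be technical.

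A sarcomere is built on 2 filament systems, thin filaments of actin and thick filaments of myosin. The genes described here, apart from Cmya5, serve the thick one. Titin runs from the Z-disc at the sarcomere's edge to the M-band at its centre, as a spring and as a ruler for the thick filament, and myomesins cross-link titin and myosin at the M-band. Myosin-binding protein C sits along the thick filament and tunes cross-bridge cycling, while the myosin motor domain folds only with the help of dedicated chaperones. Mutations in titin and cardiac myosin-binding protein C are well known causes of inherited cardiomyopathy.

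Cmya5 was the member with the lowest double knockout level relative to wild type, at about 0.518 of it, and Ttn and Mybpc3 lay modestly lower in both double knockout libraries. Myom2, the atrial gene Mybphl and, at low counts, Myom3 lay higher in both, whereas Myom1, Smyd1 and Unc45b overlapped between the groups. None of the 9 members passed the edgeR quasi-likelihood test at a Benjamini-Hochberg adjusted p under 0.05 over all 16009 genes tested, where 0.0750% of genes passed. At an unadjusted edgeR p under 0.05 there were 2 members, Myom2 upward and Cmya5 downward, where 8.70% of all genes were upward, 8.63% downward and 17.3% either. DESeq2 called 1, Cmya5, against 3.82% of the genes for which it gave an adjusted p. The double knockout libraries were both above the wild type pair in 3 members and both below it in 3, against 25.8% and 25.2% of all genes. The median log2 fold change of the members was -0.07, beside 0.01 over all genes tested. All 9 members passed the filter on low counts.

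Depth ran from 16175259 to 29460641 counts per library, and the members together held 1.496% to 1.76% of them. Mrtfa stood at 9.06 and 11.1 CPM in the wild type pair against 3.35 and 2.26 CPM in the double knockout pair. CPM is the depth-scaled count, here with TMM factors. Mrtfb stood at 46.9 and 56.8 CPM in the wild type pair against 46.0 and 49.6 CPM in the double knockout pair. Whole-gene counts include exons outside a deleted part, so neither level checks a label by itself. The labelled tissue carried its markers: the 10 cardiomyocyte genes were read in all 4 libraries and summed to 46982 and 47693 CPM in the wild type pair against 45637 and 39889 CPM in the double knockout pair. Of these 10, 7 were lower in both double knockout libraries and 1 higher in both, against 25.2% and 25.8% of all genes. Their median log2 fold change was -0.17, on the same side as Ttn and Mybpc3. Of 10 smooth muscle and pericyte markers, 8 were lower in both and 0 higher in both, against the same 25.2% and 25.8%. They summed to 4513 and 2956 CPM in the wild type pair against 1762 and 1678 CPM in the double knockout pair. Within that sum, Acta2 alone stood at 2962 and 1468 CPM against 535 and 439 CPM. Pdgfrb and Kcnj8 overlapped between the groups. The part of either cell type in the member values was not tested. Within these bulk hearts, fewer cells of a type and less RNA per cell cannot be told apart.

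**Figure D1:**
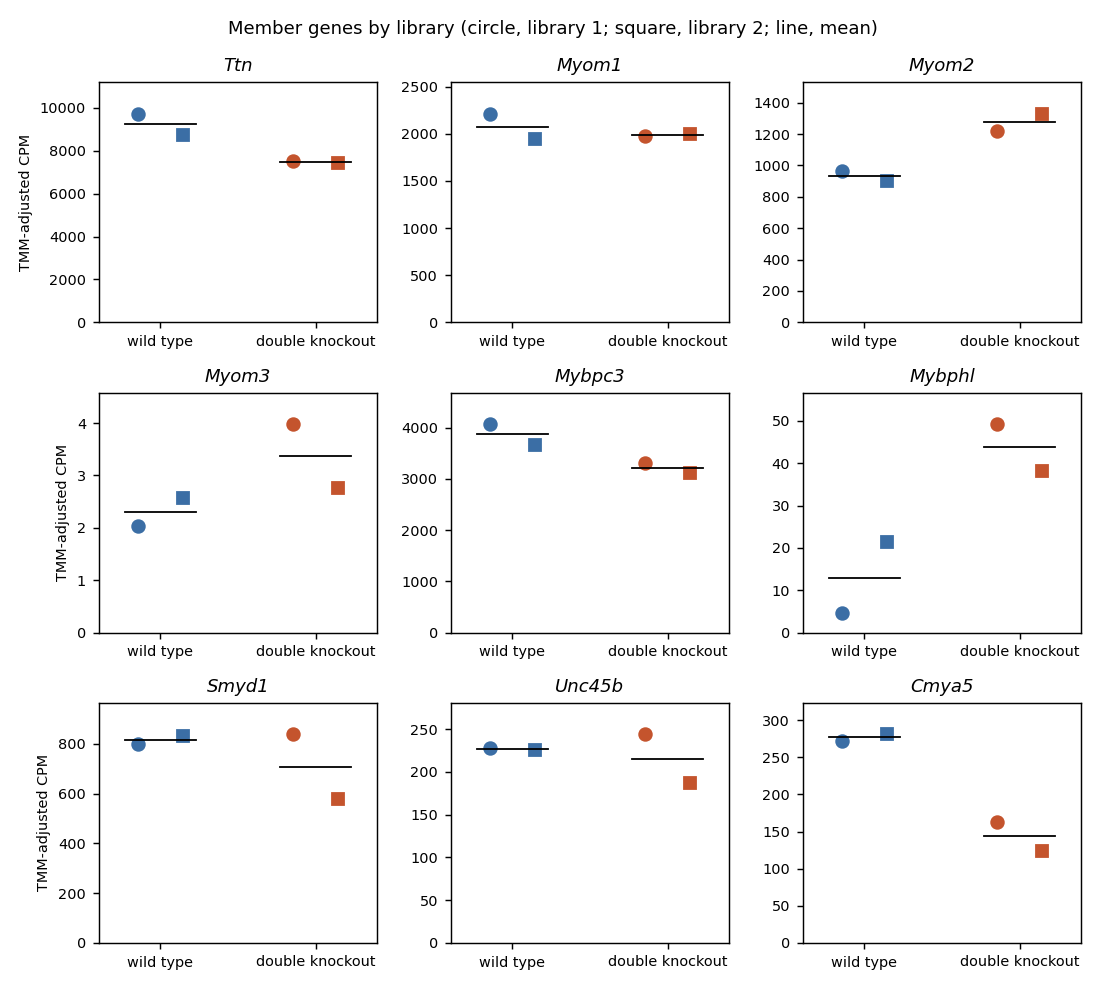
TMM-adjusted CPM (vertical axes, from 0) of each member in the 2 wild type libraries (blue) and the 2 double knockout libraries (orange), with lines at the group means. Cmya5 and Ttn sit lower in both double knockout libraries, Myom2 and Mybphl sit higher, and Smyd1 and Unc45b are split between double knockout library 1 and library 2.

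The promoters of 8 of the 9 members were matched by symbol in RefSeq (GRCm38.p6) and searched because MRTFs act through SRF, whose binding motif is the CArG box. Each window runs from 250 bases before to 50 bases after a RefSeq start site; Myom2 had no entry. Both strands were searched for the CArG box, for the site of MEF2, another activator of muscle genes, and for CATTCC, the MCAT motif bound by TEAD factors. The CArG box was found in 1 of the 8 members, against 1.63% of 32851 windows, the MEF2 site in 3 against 3.19%, and CATTCC in 1 against 14.7%. No 2 of these matches overlapped. The 4 windows below show the member with a CArG box (Myom1), 2 with a MEF2 site (Ttn and Mybpc3) and the member with the lowest relative level (Cmya5), whose window held none of the 3 motifs. Capitals mark the matches.
Myom1: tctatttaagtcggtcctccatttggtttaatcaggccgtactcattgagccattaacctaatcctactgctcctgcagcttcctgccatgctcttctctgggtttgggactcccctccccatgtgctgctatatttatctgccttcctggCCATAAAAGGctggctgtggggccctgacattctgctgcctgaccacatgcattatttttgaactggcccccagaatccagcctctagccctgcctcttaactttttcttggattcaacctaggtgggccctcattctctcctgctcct
Ttn: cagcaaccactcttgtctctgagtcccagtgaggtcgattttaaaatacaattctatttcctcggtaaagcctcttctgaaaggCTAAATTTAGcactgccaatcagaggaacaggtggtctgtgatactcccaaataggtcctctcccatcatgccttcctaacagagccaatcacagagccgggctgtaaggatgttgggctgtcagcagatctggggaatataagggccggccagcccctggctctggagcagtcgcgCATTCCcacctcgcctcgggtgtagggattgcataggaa
Mybpc3: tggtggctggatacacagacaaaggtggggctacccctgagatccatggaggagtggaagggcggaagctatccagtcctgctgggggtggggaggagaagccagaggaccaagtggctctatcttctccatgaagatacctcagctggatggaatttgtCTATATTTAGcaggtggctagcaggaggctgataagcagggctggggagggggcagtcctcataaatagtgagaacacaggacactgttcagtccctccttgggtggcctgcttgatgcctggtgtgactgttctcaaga
Cmya5: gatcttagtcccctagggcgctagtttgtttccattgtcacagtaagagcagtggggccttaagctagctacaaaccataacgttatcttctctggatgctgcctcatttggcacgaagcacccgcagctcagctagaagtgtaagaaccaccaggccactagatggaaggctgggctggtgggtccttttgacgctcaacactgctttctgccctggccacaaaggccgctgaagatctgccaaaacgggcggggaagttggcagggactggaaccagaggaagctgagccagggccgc
These are chr17:71019307-71019606 on the plus strand for Myom1, chr2:76982498-76982797 on the minus strand for Ttn, chr2:91117894-91118193 on the plus strand for Mybpc3 and chr13:93144675-93144974 on the minus strand for Cmya5, each written 5′ to 3′ along the gene. The CArG box CCATAAAAGG of Myom1 starts 99 bases before the RefSeq start site, which lies inside the longer GENCODE gene model. The MEF2 sites start 166 bases before the start in Ttn (CTAAATTTAG), 90 bases before it in Mybpc3 (CTATATTTAG) and 35 bases before it in Myom3 (CTATATTTAA). In Ttn, CATTCC lies within the 50 bases after the start. A match describes letters in a window and is not a measured binding site, and a window without a match says nothing about the factor.

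Ttn encodes titin and is the most heavily counted of the members (ENSMUSG00000051747, chromosome 2, 76703980 to 76982547, minus strand, mm10; 345 merged exon blocks). It was at 9727 and 8738 CPM in wild type libraries 1 and 2, and at 7514 and 7421 CPM in double knockout libraries 1 and 2. The double knockout libraries lay close together and both were below the lower wild type library. The means were 9232 ± 699.8 and 7468 ± 65.6 CPM (SD, n = 2 per group), a level 19.1% lower. Its log2 fold change was -0.31 (SE 0.13, 95% interval of the fit -0.62 to 0.0041; edgeR adjusted p = 0.294), so the difference did not pass the test. Leaving out each library in turn moved the log2 fold change between -0.40 and -0.23.

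The M-band has 3 myomesin genes. Myom2 and Myom3 were higher in both double knockout libraries, Myom3 at low counts, while Myom1 overlapped between the groups. Myom1, which encodes myomesin, the main cross-linker of the M-band (ENSMUSG00000024049, chromosome 17, 71002633 to 71126856), stood at 2213 and 1940.5 CPM in the wild type pair against 1976 and 1998 CPM in the double knockout pair. The groups overlapped, and the log2 fold change was -0.06 (SE 0.13, 95% interval -0.37 to 0.25; edgeR adjusted p = 0.828). With library totals alone as the scaling, or without wild type library 1, its sign turned, to 0.0075 and 0.030. Myom1 shares 207 exon bases with Myl12a on the opposite strand, and the strand setting was not given in the sources used here. Reads of this pair therefore cannot be told apart there.

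Myom2 encodes M-protein, a myomesin relative that also bridges thick filaments at the M-band (ENSMUSG00000031461, chromosome 8, 15057653 to 15133541). It stood at 963 and 901 CPM in the wild type pair against 1222 and 1330.2 CPM in the double knockout pair. Both double knockout libraries were above both wild type libraries, with a gap wider than the spread within either group. The means were 932 ± 44.2 and 1276 ± 76.8 CPM (SD, n = 2 per group), a level 36.9% higher. This gave a log2 fold change of 0.45 (SE 0.12, 95% interval 0.16 to 0.75), with edgeR adjusted p = 0.177 and DESeq2 adjusted p = 0.0738. Among fits of all 4 libraries it passed only in edgeR with no filter on low counts (adjusted p = 0.0324), a setting in which 6.07% of all genes passed. Leaving out double knockout library 1 or 2 made the log2 fold change 0.51 or 0.39.

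Myom3, a myomesin known from skeletal muscle (ENSMUSG00000037139, chromosome 4, 135759715 to 135815564), was the least counted of the members. Its counts were 58 and 64 in wild type and 113 and 45 in double knockout, or 2.04, 2.57, 3.99 and 2.75 CPM. The order of the groups rested mainly on double knockout library 1: its exact Poisson interval was 3.28 to 4.79 CPM, while that of double knockout library 2, 2.01 to 3.68 CPM, overlapped both wild type libraries. These intervals cover counting error only. On the log2 scale the fold change was 0.56 (SE 0.30; edgeR adjusted p = 0.386), and leaving out double knockout library 1 or 2 made it 0.26 or 0.79.

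Since the myomesin genes are read in the same library, their ratio does not depend on how libraries are scaled. Per kb of exon, Myom2 made up 33.9% and 35.4% of the summed myomesin reads in wild type and 42.1% and 44.0% in double knockout. Myom1 made up 66.0% and 64.5% in wild type and 57.7% and 55.9% in double knockout, and Myom3 between 0.106% and 0.202% in every library. The Myom2 to Myom1 ratio was 0.514 and 0.548 in wild type and 0.730 and 0.787 in double knockout, a log2 difference of 0.51 with a pooled replicate SD of 0.07. In an exact two-sided permutation test with 2 libraries per group the smallest possible p is 0.333, which this ratio reached, so this test cannot place any ratio past 0.05. Of the 14 ratios computed, 11 reached that p, with a Benjamini-Hochberg adjusted p of 0.424 each.

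Skeletal muscle, which also carries M-band genes, was checked with 12 marker genes, 5 of which passed the filter on low counts. Their summed level was 157 and 76.1 CPM in the wild type pair against 11.0 and 15.8 CPM in the double knockout pair, most of it Acta1 (149, 63.5, 3.35 and 6.85 CPM in the order wild type 1, wild type 2, double knockout 1 and double knockout 2). Myod1, the defining factor of skeletal myoblasts, had 0 counts in all 4 libraries, and the adult skeletal myosin genes Myh1, Myh2 and Myh4 had between 0 and 13. Without Acta1, a choice made after the data were seen, the other 11 genes summed to 8.60 and 12.5 CPM in the wild type pair against 7.65 and 8.93 CPM in the double knockout pair, so the groups overlapped. Of these 11, 4 passed the filter on low counts, with 1 higher and 1 lower in both double knockout libraries. Actn3, the fast-fibre alpha-actinin, was the higher one, at 0.141 and 0.281 against 0.846 and 1.59 CPM (4, 7, 24 and 26 counts). Tnni2 was the lower one, at 3.56 and 3.17 against 1.66 and 1.71 CPM (101, 79, 47 and 28 counts). The part of skeletal muscle RNA in the myomesin values was not tested.

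Mybpc3 encodes cardiac myosin-binding protein C (ENSMUSG00000002100, chromosome 2, 91118144 to 91136516). It stood at 4072 and 3661 CPM in the wild type pair against 3319 and 3124 CPM in the double knockout pair. As with Ttn, both double knockout libraries were below both wild type libraries, by a margin similar to the spread between the wild type libraries. The mean level was 16.7% lower, with a log2 fold change of -0.26 (SE 0.13, 95% interval -0.57 to 0.05; edgeR adjusted p = 0.352). Leaving out single libraries gave values from -0.35 to -0.19.

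Mybphl encodes a short relative of myosin-binding protein H that is known from atrial muscle and the conduction system (ENSMUSG00000068745, chromosome 3, 108364911 to 108380057). It stood at 4.65 and 21.3 CPM in the wild type pair against 49.3 and 38.2 CPM in the double knockout pair, from 132, 530, 1397 and 625 counts. Wild type library 1 stood far below wild type library 2, and both double knockout libraries were above either. The means were 13.0 ± 11.8 and 43.8 ± 7.80 CPM (SD, n = 2 per group). The log2 fold change was 1.76 (SE 0.70, 95% interval -0.06 to 3.58; edgeR adjusted p = 0.299), and leaving out wild type library 1 or 2 made it 1.04 or 3.22. Its size therefore rested on which wild type library was kept, while its direction was positive in all 15 alternative fits. Mybphl shares 89 exon bases with Gm12522 on the opposite strand, which had 18 and 31 counts in wild type and 74 and 38 in double knockout. Without a stated strand setting, reads of this pair cannot be told apart there.

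Other atrial genes lay on the same side as Mybphl. The summed level of 10 atrial markers was 844 and 1278 CPM in the wild type pair against 1900.3 and 1681 CPM in the double knockout pair, which is the order of libraries seen for Mybphl. None of the 10 was at 0 counts. In 7 of the 10, both double knockout libraries were above both wild type libraries, against 25.8% of all genes. Myl4, Kcnj5 and Nr2f2 overlapped between the groups. Myl7, the atrial regulatory light chain, stood at 82.1 and 231 CPM in the wild type pair against 292 and 309.8 CPM in the double knockout pair, and Sln, the atrial calcium pump regulator sarcolipin, at 3.84, 19.2, 28.1 and 37.1 CPM. Nppa stood at 237 and 221 CPM in the wild type pair against 480 and 432 CPM in the double knockout pair. Bmp10 stood at 8.85 and 8.20 CPM against 21.4 and 40.4 CPM. Neither Nppa nor Bmp10 had its lower wild type level in library 1, unlike Mybphl. The part of the amount of atrial tissue in the Mybphl difference was not tested.

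Smyd1 and Unc45b act on myosin before it enters the filament. Smyd1 is a muscle methyltransferase that thick filament assembly requires (ENSMUSG00000055027, chromosome 6, 71213940 to 71322233). It stood at 799.7 and 833 CPM in the wild type pair against 839 and 577 CPM in the double knockout pair. Double knockout library 1 was at the wild type level and library 2 was below it. On the log2 scale the fold change was -0.21 (SE 0.19, 95% interval -0.68 to 0.26; edgeR adjusted p = 0.623). It was -0.50 without double knockout library 1, where edgeR adjusted p was 0.0212 and 17.1% of all genes passed, and 0.038 without library 2, where adjusted p was 0.902.

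Unc45b, the muscle chaperone that works with Hsp90 to fold the myosin head (ENSMUSG00000018845, chromosome 11, 82910550 to 82943403), followed the same split. It stood at 228 and 226 CPM in the wild type pair against 244 and 187 CPM in the double knockout pair. The wild type libraries lay between the 2 double knockout libraries. The log2 fold change was -0.07 (SE 0.15, 95% interval -0.44 to 0.30; edgeR adjusted p = 0.836), and leaving out double knockout library 1 or 2 made it -0.28 or 0.10. With library totals alone it was 1.44e-04. Unc45b shares 255 exon bases with Unc45bos and 151 with Slfn5os, both on the opposite strand, where reads cannot be told apart without a stated strand setting. The Smyd1 to Unc45b ratio per kb of exon was 3.47 and 3.65 in wild type and 3.40 and 3.05 in double knockout, so the gap between the double knockout libraries was narrower in the ratio than in either gene.

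Cmya5 encodes myospryn, a large muscle protein that binds desmin and holds the calcium release machinery near the Z-disc (ENSMUSG00000047419, chromosome 13, 93040713 to 93144724, minus strand; 13 merged exon blocks). It was at 272 and 281 CPM in wild type libraries 1 and 2 and at 163 and 124 CPM in double knockout libraries 1 and 2. The groups were far apart: the higher double knockout library was well below the lower wild type library, and the wild type libraries nearly coincided. The means were 277 ± 6.22 and 144 ± 27.5 CPM (SD, n = 2 per group). The log2 fold change was -0.95 (SE 0.15, 95% interval -1.32 to -0.57), and Cmya5 was the only member that a test over all genes called with all 4 libraries and a filter on low counts: DESeq2 gave adjusted p = 1.27e-04, a call made downward for 1.81% of genes, while edgeR gave adjusted p = 0.121.

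The size of the Cmya5 difference held across settings, and the call did not. Over 15 alternative fits its log2 fold change lay between -1.16 and -0.77, and its adjusted p between 8.65e-10 and 0.971. It passed in 4 of them: DESeq2, edgeR with no filter, and edgeR without double knockout library 1 (adjusted p = 3.57e-05) or without library 2 (0.00195), the last of which called 8.24% of all genes. It did not pass without wild type library 1 (0.971) or 2 (0.550), nor with a replicate block (0.139). Cmya5 shares 2451 exon bases with A630019I02Rik, annotated on the opposite strand and absent from the counted identifiers. Without a stated strand setting, any reads of A630019I02Rik in those bases cannot be told apart from reads of Cmya5.

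**Figure D2:**
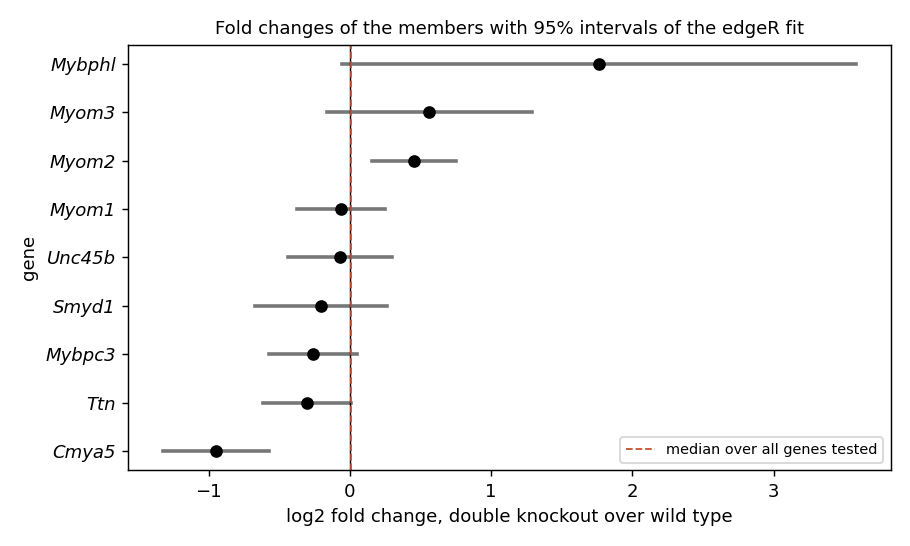
Log2 fold change of each member, double knockout over wild type (horizontal axis), with the unadjusted 95% interval of the edgeR fit as a grey line and the median of all genes tested as a dashed line. The intervals of Cmya5 (-1.32 to -0.57) and Myom2 (0.16 to 0.75) exclude 0, and that of Mybphl is the widest (-0.06 to 3.58).

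Compared per kb of merged exon, so that genes of different length can be set side by side, the members spanned more than 3 orders of magnitude on the log axis. In wild type, Mybpc3 was highest at 929 CPM per kb, followed by Myom1 at 199, Smyd1 at 179.6, Myom2 at 105, Ttn at 79.0, Unc45b at 50.5, Cmya5 at 23.4, Mybphl at 10.2 and Myom3 at 0.382. Myom1 and Smyd1 were neighbours that differed by less than the spread between the Myom1 libraries (212 and 186, against 176 and 183 CPM per kb), and all other neighbours were separated in both wild type libraries. In double knockout, Smyd1 (185 and 127 CPM per kb) overlapped Myom2 (138 and 150), and Mybphl (38.6 and 30.0) stood above Cmya5 (13.8 and 10.5), the reverse of their wild type order. With the longest annotated transcript in place of all exons, the wild type order was the same, while Myom1 stood at 368, Smyd1 at 243 and Myom2 at 184 CPM per kb. Coverage along transcripts cannot be seen in gene counts.

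**Figure D3:**
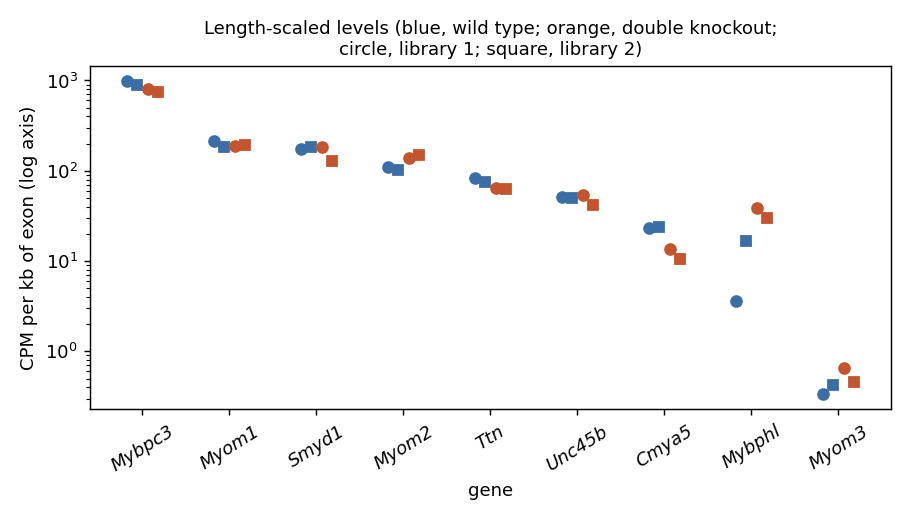
CPM per kb of merged exon (log axis) for each member, ordered by the wild type mean, with 1 point per library. Mybpc3 leads at 750.3 to 978 CPM per kb, Myom3 is below 1 in every library, and Mybphl is above Cmya5 in the double knockout libraries only.

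Relative to myosin heavy chain itself, the same pattern held. Myh6 and Myh7 encode the alpha and beta heavy chains, and their reads per kb were summed within each library; the 2 genes are close copies, so the split between them is uncertain while their sum is less so. Ttn stood at 2.93% and 2.69% of that sum in wild type and 2.49% and 2.44% in double knockout, a log2 difference of -0.19. Mybpc3 stood at 34.4% and 31.7% in wild type and 30.8% and 28.9% in double knockout, a log2 difference of -0.15. Both ratios were lower in both double knockout libraries, by less than the difference in CPM.

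Cmya5 stood at 0.808% and 0.855% of the summed myosin heavy chain reads in wild type and at 0.532% and 0.403% in double knockout, a log2 difference of -0.84. The summed myomesins stood at 11.3% and 10.4% in wild type and 12.7% and 13.2% in double knockout. Smyd1 and Unc45b overlapped between the groups in this ratio too. Myh7, the heavy chain that predominates in the fetal ventricle, made up 14.5% and 8.07% of the heavy chain sum in wild type and 14.8% and 25.8% in double knockout. That share was added after the data were seen; its log2 difference was 0.85 with a pooled replicate SD of 0.58.

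**Figure D4:**
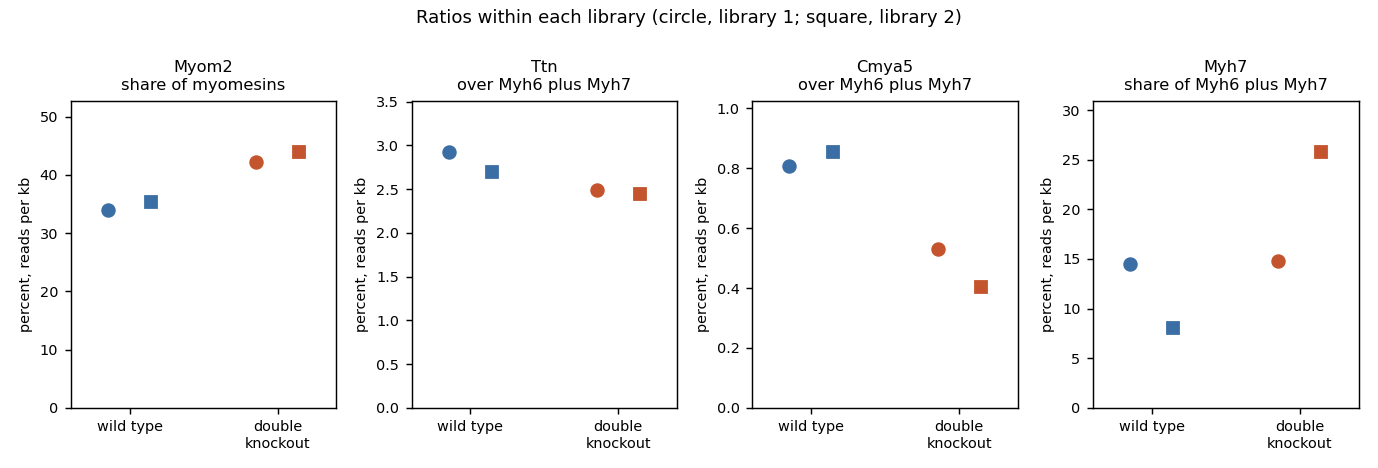
Within-library ratios in percent of reads per kb of exon (vertical axes, from 0) for wild type (blue) and double knockout (orange). The Myom2 share is higher in both double knockout libraries (42.1% and 44.0%, against 33.9% and 35.4%), the Cmya5 ratio is lower in both, and the Myh7 share is close in wild type library 1 and double knockout library 1.

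Other genes of the same machinery were described from 6 lists of 69 genes, of which 67 were tested. edgeR called 0 of them over all genes. At an unadjusted edgeR p under 0.05 there were 7 higher and 6 lower, against 8.70% and 8.63% of all genes, and DESeq2 called 2 higher and 3 lower, against 2.01% and 1.81%. Those 5 are named below and, unless stated, were chosen after their values were seen. Both double knockout libraries were above both wild type libraries in 12 of the 67 and below them in 20, against 25.8% and 25.2% of all genes. Their median log2 fold change was -0.07.

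Among M-band partners, 2 of the 9 tested were DESeq2 calls, both downward, against 1.81% of all genes in that direction. edgeR called 0, with 3 lower at an unadjusted p under 0.05, against 8.63% of all genes. Ckm, muscle creatine kinase, part of which is anchored at the M-band, was among the highest-level genes of its list and so was named by rule. It stood at 2082 and 1959 CPM in the wild type pair against 1082 and 1244 CPM in the double knockout pair (log2 fold change -0.80, SE 0.13; DESeq2 adjusted p = 1.07e-04, edgeR adjusted p = 0.121). Speg, a muscle kinase of the junction between T-tubule and sarcoplasmic reticulum, stood at 161 and 146 CPM in the wild type pair against 105 and 69.9 CPM in the double knockout pair (-0.81, SE 0.20; DESeq2 adjusted p = 0.0192). Fhl2 and Trim55, named by rule, had log2 fold changes of -0.19 and 0.13 and overlapping groups, and the median of the list was -0.09.

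Among titin-binding and titin-signalling genes, 2 of 11 tested were DESeq2 calls, both upward, against 2.01% of all genes in that direction. edgeR called 0, with 3 higher at an unadjusted p under 0.05 (Tcap, Sqstm1 and the protease gene Capn3), against 8.70% of all genes. Tcap, the telethonin that caps titin at the Z-disc, stood at 61.2 and 69.6 CPM in the wild type pair against 104.7 and 92.3 CPM in the double knockout pair (log2 fold change 0.59, SE 0.12; DESeq2 adjusted p = 0.0324, edgeR adjusted p = 0.148). Sqstm1, an autophagy receptor in the titin kinase pathway, stood at 148 and 179.9 CPM in the wild type pair against 248 and 408 CPM in the double knockout pair (DESeq2 adjusted p = 0.00793, edgeR adjusted p = 0.180). Tcap thus lay higher where Ttn lay lower. Ankrd1, the stretch-responsive partner of the titin spring region, differed more within the groups than between them, at 2709 and 874 CPM in the wild type pair against 977 and 3222 CPM in the double knockout pair. Actn2, the alpha-actinin that anchors titin at the Z-disc, had a log2 fold change of -0.18, and Csrp3, muscle LIM protein, 0.47; the median of the list was 0.23.

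Myosin-folding chaperones and Smyd1 partners had a median of -0.11 in 20 tested genes, of which 7 were lower and 2 higher in both double knockout libraries, against 25.2% and 25.8% of all genes. edgeR called 0. At an unadjusted edgeR p under 0.05 there were 1 higher and 2 lower, against 8.70% and 8.63% of all genes. The higher one was Smyd3 (0.52 on the log2 scale), and the lower ones were Stip1 and Hspa4 (the latter at -0.42). DESeq2 called 1 of the 20, Stip1, downward, against 1.81% of all genes in that direction. Stip1, the cochaperone that joins Hsp70 to Hsp90, stood at 156 and 143 CPM in the wild type pair against 96.3 and 84.7 CPM in the double knockout pair (log2 fold change -0.73, SE 0.12; DESeq2 adjusted p = 0.00168, edgeR adjusted p = 0.121). Hsp90ab1, the constitutive Hsp90 that Unc45b works with, stood at 1338 and 1377 CPM in the wild type pair against 1507 and 1892 CPM in the double knockout pair (0.32, SE 0.15; edgeR adjusted p = 0.332). Naca, whose muscle form binds Smyd1, stood at 383 and 377 CPM in the wild type pair against 244 and 401 CPM in the double knockout pair. Its groups overlapped, as did those of 11 of the 20 genes. Tcp1, a subunit of the chaperonin that folds actin and tubulin, had a log2 fold change of -0.17.

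The thick filament list had a median of -0.22 in 10 tested genes, with 0 calls by edgeR or DESeq2. In both double knockout libraries 2 were higher (Myl7 and Mylk3) and 3 lower (Myh6, Myl2 and Myl3), against 25.8% and 25.2% of all genes. At an unadjusted edgeR p under 0.05 there was 1, Mylk3, higher, against 8.70% of all genes in that direction. Myh6 stood at 16361 and 17163 CPM in the wild type pair against 14825 and 12968 CPM in the double knockout pair, with a fitted difference of -0.27 on the log2 scale (SE 0.13; edgeR adjusted p = 0.364). Myl2, the ventricular regulatory light chain, had a log2 fold change of -0.29, close to that of Mybpc3, and Mylk3, the cardiac kinase of that light chain, one of 0.53. Titin splicing regulators had a median of 0.07 in 9 tested genes, with 0 calls by either tool. At an unadjusted edgeR p under 0.05 there were 2, both higher: Rbm24 and Rbfox1 (0.55 on the log2 scale), against 8.70% of all genes. Rbm24, a muscle splicing regulator, stood at 383 and 399 CPM in the wild type pair against 484 and 495 CPM in the double knockout pair (log2 fold change 0.32, SE 0.11; edgeR adjusted p = 0.225). Srsf1, a general splicing factor, had a log2 fold change of -0.19 and overlapping groups. Rbm20, the main repressor of titin exons, stood at 549 and 491 CPM in the wild type pair against 539 and 603 CPM in the double knockout pair, with overlapping groups.

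Of 8 tested partners of myospryn and genes of the junction between T-tubule and sarcoplasmic reticulum, 0 were called by edgeR or DESeq2. At an unadjusted edgeR p under 0.05 there was 1, Prkar2a, lower, against 8.63% of all genes in that direction. The log2 fold changes of the 8 ran from -0.39 to 0.02 with a median of -0.17. Ryr2, the calcium release channel, stood at 1746 and 2052 CPM in the wild type pair against 1697 and 1705 CPM in the double knockout pair. Des, the desmin that binds myospryn, stood at 813 and 723 CPM in the wild type pair against 639 and 685 CPM in the double knockout pair, and Cacna1c, the L-type calcium channel, had overlapping groups. Whether the Cmya5 difference exceeds theirs was not tested.

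**Figure D5:**
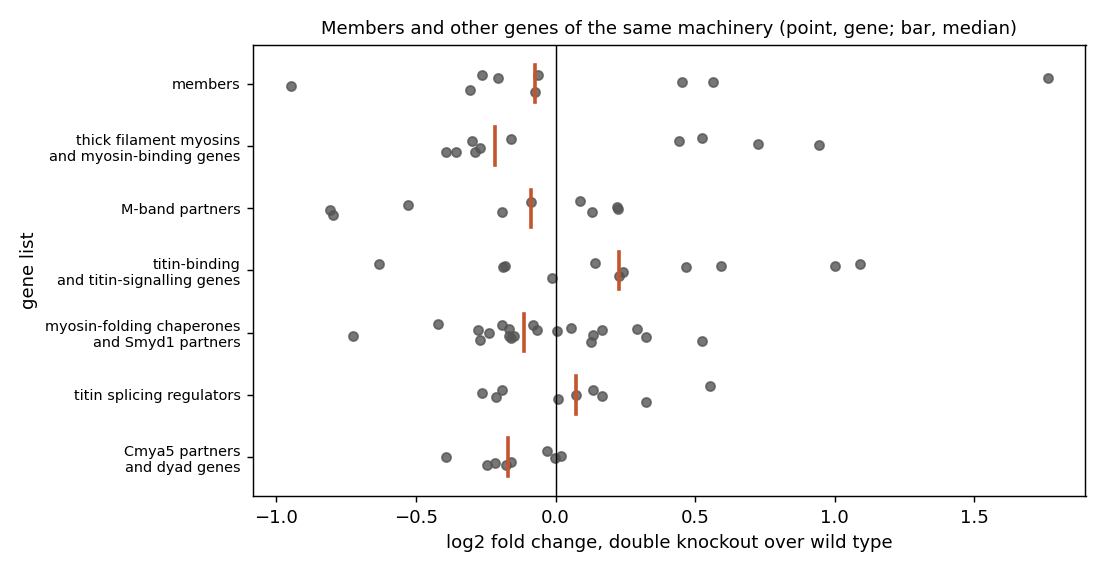
Log2 fold change (horizontal axis) of each tested gene in the 9 members and the 6 lists of related genes, with an orange bar at each median. The medians lie between -0.22 and 0.23, while Cmya5 at -0.95 and Mybphl at 1.76 mark the ends of the members.

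The genes whose centred log2 CPM profile over the 4 libraries was nearest to that of Ttn, Mybpc3 and Cmya5 were found among 3900 other genes with a mean of at least 50 CPM. Nearest to Ttn were Osbpl3 and Emc2 (root mean square distance 0.0090 and 0.010 on the log2 scale), and nearest to Mybpc3 were Purb and Eef1g (0.0058 and 0.013). Nearest to Cmya5 were Ech1, an enzyme of fatty acid oxidation, and Dysf, the membrane repair protein dysferlin (0.076 and 0.097). The nearest genes thus lay at smaller distances from Ttn and Mybpc3 than from Cmya5. Distances were not scaled for the size of the fold change, which was larger for Cmya5 (log2 -0.95) than for Ttn (-0.31) or Mybpc3 (-0.26). They therefore do not compare how distinct these profiles are. With 4 libraries these distances are a description only.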

How the data were processed

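The deposited values were raw counts per gene in 1 file a library. Per the submitters' processing notes, the authors used HTSeq with build mm10, and DESeq 1.10.1 is named too. The aligner, annotation release and strand setting were not given in the sources used here. Every file held 43346 identifiers and 0 rows that name no gene; 42462 matched a symbol. Positions and exon lengths came from GENCODE M21 (GRCm38), promoters from RefSeq GRCm38.p6.

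The main test was edgeR 4.0.16 in R 4.3.3: quasi-likelihood with robust estimation, TMM factors, filterByExpr defaults, 4 libraries in 1 fit and no covariate, with Benjamini-Hochberg adjustment over all genes and a threshold of 0.05. Each SE is the fold change divided by the root of F. Alternatives were 3 other scalings, 2 other filters, DESeq2 1.42.0, limma 3.58.1 (voom), edgeR without robust estimation, removal of erythroid and mitochondrial genes, a replicate block, and leaving out each library. Scripts were tested on simulated data. Replicate libraries differed by more than sampling noise (chi-square per gene 16.5 and 39.2). The members and lists were chosen with earlier results of these data known. Genes named by rule were the members, Mrtfa, Mrtfb and, from each list, the 3 with the highest mean CPM and any past the edgeR threshold; 1 list symbol was unmatched, and 1 gene of the lists is not reported here.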

Additional observations from a re-analysis of the deposited data

How the results depend on the processing

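The count of members past the threshold was 0 in the main fit, 2 with no filter, 1 with DESeq2 and between 0 and 3 with 1 library left out. For the related lists it was 0, then 12 with no filter, 5 with DESeq2 and between 0 and 17 with 1 library left out. For all genes it was 12, then 1514 with no filter, 526 with DESeq2 and between 2 and 2795 with 1 library left out. With a replicate block it was 2 for all genes and 0 for the members. Deviations of same-numbered libraries correlated at r = -0.12 across genes. This value compares 1 wild type difference with 1 double knockout difference, so it cannot decide whether same-numbered libraries were paired. A crossed block, added after the data were seen, called 3 genes and 0 members.

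Signs turned for small log2 fold changes. Under library totals alone Myom1 was at 0.0075 and Unc45b at 1.44e-04. With 1 library left out, Myom1 ranged from -0.17 to 0.030, Smyd1 from -0.50 to 0.038, Unc45b from -0.28 to 0.10, Mrtfb from -0.25 to 0.012, Trim55 from -0.15 to 0.36, Ankrd1 from -0.88 to 1.26, Naca from -0.64 to 0.074 and Cacna1c from -0.12 to 0.15. The signs of Ttn, Myom2, Myom3, Mybpc3, Mybphl and Cmya5 held in all 15 alternative fits. The cause of these changes was not tested. With 2 libraries per group, the number of libraries limits these comparisons; depth adds counting error that matters for Myom3, at 45 to 113 counts.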
